A study of Sus scrofa with 8 samples.

Results

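The genes described here are 10 genes of the cellular response to low oxygen, examined in bulk transcriptomes of porcine pancreatic ductal organoids (PPDO), which are epithelial structures grown in a gel from duct fragments of the pig pancreas. They are the oxygen-regulated transcription factor subunit HIF1A, the oxygen sensors EGLN1 and EGLN3, and the target genes AK4, PDK1, BNIP3, ADM, NDRG1, ANKRD37 and KDM3A, chosen by name among targets that are not enzymes of glycolysis. The choice was made with earlier results of these data known. Of the 30282 genes in the count table, 9 of these 10 were found by their symbol, and EGLN1, which the table lists by identifier only, was found through a separate table of gene names. The cultures were 4 PPDO lines, and each line was grown for a week in complete medium (labelled Control) and in differentiation medium (labelled Treated), which gave 8 libraries. Em was derived at an embryonic stage, EPN1 and EPN2 at an early postnatal and LPN at a late postnatal stage, from pancreata of pigs that were wild-type or carried an eGFP transgene under the insulin promoter. Each stage except the early postnatal one is thus a single line, and which line came from which genotype is not given in the sources used here. Complete medium held WNT3a, R-spondin1, noggin, FGF10, EGF, gastrin and prostaglandin E2. For maintaining the lines, the study's methods state that a conditioned medium supplement took the place of WNT3a, R-spondin1 and noggin. Differentiation medium lacked these factors and the supplement. Both media shared N2, B27 without vitamin A, the TGF-beta receptor inhibitor A83-01, the ROCK inhibitor Y-27632, nicotinamide and N-acetyl-cysteine. One field of the sample records names an endocrine induction medium for all samples, so that the media are taken from the sample titles.

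When oxygen is plentiful, the prolyl hydroxylases encoded by the EGLN genes modify the HIF alpha subunits, which the VHL ubiquitin ligase then marks for destruction. When oxygen is scarce, HIF alpha escapes this modification, pairs with ARNT and switches on genes for glycolysis, for a lower use of oxygen by mitochondria and for signals to blood vessels. EGLN1 and EGLN3 are themselves HIF targets, which makes them part of a feedback loop. HIF1A is controlled mainly through the stability of its protein, and only RNA was measured here. In bulk RNA, fewer cells of a type and less RNA per cell cannot be told apart.

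Library totals ranged from 40553593 to 47910657 counts, and the lowest count of any of the 10 genes in any library was 79, for ANKRD37. A count of 0 would allow up to 3 counts, which is 0.0626 to 0.0740 CPM (counts per 1e6 counts of the library) and covers counting error only. Expression is given in CPM scaled by TMM factors, and levels are compared between libraries. The values were not divided by gene length, so that sums over marker genes and the gene leading a sum describe counts, not transcript numbers. Differentiation medium was set against complete medium by edgeR's quasi-likelihood test over the 14475 genes left after its filter on low expression, with Benjamini-Hochberg adjustment over all of them and a threshold of 0.05. A negative log2 fold change is a lower level in differentiation medium. The line was not a term of the fit, and counts of calls with the line as a replicate block are given beside those without it where they differ. The lines are separate cultures from separate stages, so that the spread within a medium includes the difference between lines.

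The libraries carried the markers of ductal epithelium. Of 12 ductal genes, 11 were found by symbol, and their summed level was 4460 to 14903 CPM. KRT8, a keratin of simple epithelia, reached the highest CPM among them. From complete to differentiation medium the ductal sum rose from 9690 to 14903 CPM in Em and from 7026 to 10332 in EPN1. It fell from 7374 to 5994 CPM in LPN and from 7040 to 4460 in EPN2. The summed acinar markers reached at most 1.70 CPM over 6 genes found, with CPB1, PNLIP and PTF1A at 3 counts or fewer in every library. Stromal markers summed to at most 9.26 CPM over 7 genes, led by COL3A1, and endothelial markers to 16.2 to 44.7 CPM over 5 genes, led by KDR, with CDH5 at 3 counts or fewer. The endothelial sum rose in differentiation medium from 21.9 to 44.5 CPM in Em and from 34.9 to 44.7 in EPN1. It fell from 23.4 to 16.2 CPM in LPN and from 22.7 to 20.6 in EPN2. Endocrine markers summed to at most 21.3 CPM, in Em in differentiation medium, led by GCG, with PPY and NEUROD1 at 3 counts or fewer. The 5 immune markers summed to 1035 to 1845 CPM, nearly all of it CD79A, and reached at most 58.3 CPM without it, with CD3E at 3 counts or fewer. The level of CD79A was 1442 ± 273 CPM in complete medium, against 1075 ± 54.3 CPM after differentiation medium (SD, n = 4, adjusted p = 0.146 in edgeR). The part of any of these markers in the results below was not tested.

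All 10 genes passed the expression filter, and all 10 had a negative log2 fold change in differentiation medium. At an adjusted p-value under 0.05, 7 of the 10 were lower and 0 higher, against a background of 4.1% of all tested genes called lower and 6.97% called in either direction. The 10 genes and the lists below were chosen with earlier results of these data known. Counts set against a background thus describe the lists and are no independent support. EGLN3, BNIP3, AK4, PDK1, NDRG1, ANKRD37 and KDM3A were the 7, and HIF1A, EGLN1 and ADM were the 3 that did not pass. The median log2 fold change was -2.59 over the 10 genes and 0.01 over all genes tested. Of the 10 genes 8 were lower in all 4 lines (background 24.2%). The libraries of the 2 media did not overlap for these 8 genes, with differentiation medium below complete medium in each, and this held for 9.96% of all tested genes. With the line as a replicate block in edgeR, 6 of the 10 were called lower (background 10.4%), because KDM3A moved to an adjusted p of 0.0502. In DESeq2, all 10 were lower, without the block (background 8.94% lower, 17.7% in either direction) and with it (background 16.6% lower, 34.7% in either direction). Lines were left out in edgeR fits only, and there the calls depended on LPN and EPN1. Without both libraries of LPN none of the 10 passed in edgeR and 5 tested genes did in all, and without both libraries of EPN1 no tested gene passed at all. Without both libraries of Em 5 of the 10 passed, and 149 of 14508 tested genes did. Without both libraries of EPN2 9 of the 10 passed, and 1207 of 14619 tested genes did. The median log2 fold change over the 10 genes was -2.46 without LPN and -2.24 without EPN1, against -2.59 with all lines. In the same order AK4 had -2.66 and -2.59, against -2.76, and BNIP3 had -3.95 in both, against -4.23. All 10 were negative in every one of these fits.

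**Figure D1:**
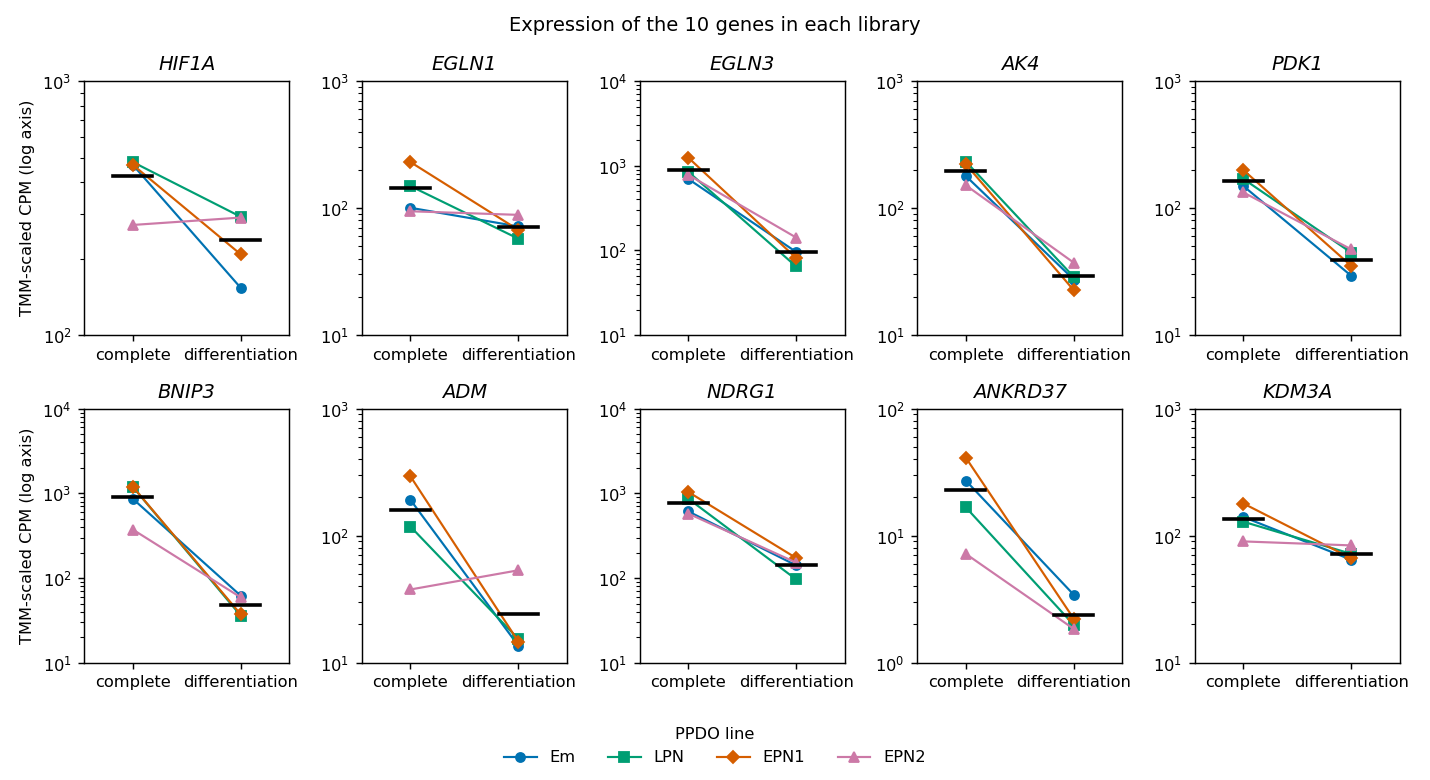
Expression of the 10 genes in each library, in TMM-scaled CPM on a log axis, with complete medium on the left and differentiation medium on the right of each panel. A coloured line joins the libraries of 1 PPDO line and a black bar marks the mean of 4. The media do not overlap for 8 genes, and the EPN2 line (triangles) rises for HIF1A and ADM.

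HIF1A, the gene of the oxygen-regulated HIF-1 subunit (ENSSSCG00000005096, chromosome 1, 190625436 to 190673926, here and below the whole gene in RefSeq's annotation of Sscrofa11.1), had the smallest log2 fold change of the 10 in size. In complete medium it had 468 CPM in Em, 480 in LPN, 468 in EPN1 and 271 in EPN2. After differentiation medium it stood at 153 CPM in Em, 292 in LPN, 208 in EPN1 and 290 in EPN2. The media overlapped, since EPN2 in complete medium lay below both LPN and EPN2 in differentiation medium. The log2 fold change was -0.84 (SE 0.27, 95% interval -1.45 to -0.22, adjusted p = 0.0954 in edgeR), lower in 3 of 4 lines. The interval is that of the single gene, before adjustment. Leaving out EPN2 in complete medium gave an adjusted p of 0.0496, the only one of the 8 fits without 1 library that passed.

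EGLN1, the main oxygen-sensing hydroxylase in most cells (ENSSSCG00000010172, chromosome 14, 59113527 to 59168421), had 101 CPM in Em, 149 in LPN, 230 in EPN1 and 94.4 in EPN2 in complete medium. In differentiation medium it had 71.7 CPM in Em, 57.4 in LPN, 67.3 in EPN1 and 88.4 in EPN2. The media did not overlap, although EPN2 in both media lay close to the gap between them. The log2 fold change was -1.01 (SE 0.30, 95% interval -1.70 to -0.32, adjusted p = 0.0802 in edgeR), lower in 4 of 4 lines, and no fit without 1 library passed the threshold.

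EGLN3, the hydroxylase best known for its strong induction by HIF (ENSSSCG00000001963, chromosome 7, 65805513 to 65833536), fell much further. It had 700 CPM in Em, 852 in LPN, 1250 in EPN1 and 782 in EPN2 in complete medium. It had 96.0 CPM in Em, 64.7 in LPN, 81.5 in EPN1 and 142 in EPN2 in differentiation medium. The lowest library in complete medium was several times the highest in differentiation medium. The log2 fold change was -3.22 (SE 0.31, adjusted p = 0.00568 in edgeR), a 9.33-fold fall with a 95% interval of 5.73 to 15.2. It passed the threshold whichever library was left out, with adjusted p-values of 0.00584 to 0.0354. The log2 ratios of EGLN3 to EGLN1 and to HIF1A in each library, chosen after the values had been seen, were then compared between the media. The ratio of EGLN3 to EGLN1 fell by 2.31 on the log2 scale, with single-line changes between -2.38 and -2.16, and that of EGLN3 to HIF1A fell by 2.40 (two-sided exact permutation test over the 70 labelings, p = 0.0286 for each, the smallest that 4 libraries against 4 allow, adjusted p = 0.0371 over 13 such ratios).

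AK4 and PDK1 act in mitochondria. AK4, an adenylate kinase of the mitochondrial matrix (ENSSSCG00000040337, chromosome 6, 147177029 to 147257799), had 179 CPM in Em, 233 in LPN, 222 in EPN1 and 151 in EPN2 in complete medium, and 27.4, 28.7, 22.5 and 37.2 CPM in the same order in differentiation medium. The spread between lines was small in both media, and no libraries overlapped. Its change of -2.76 on the log2 scale (edgeR, SE 0.21, adjusted p = 0.00221), had the 5th smallest p-value of all 14475 genes tested. PDK1, the kinase that switches off pyruvate dehydrogenase and so keeps pyruvate from becoming acetyl-CoA in the mitochondria (ENSSSCG00000015958, chromosome 15, 78608394 to 78650958), had 149 CPM in Em, 169 in LPN, 199 in EPN1 and 133 in EPN2 in complete medium. The levels in differentiation medium were 29.2, 44.4, 35.0 and 47.2 CPM in the same order. All 4 libraries in differentiation medium lay far below those in complete medium, and the log2 fold change was -2.06 (edgeR, SE 0.20, adjusted p = 0.00581). Both genes passed whichever library was left out.

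BNIP3, a receptor on the outer mitochondrial membrane that directs mitochondria to autophagy (ENSSSCG00000024388, chromosome 14, 140362123 to 140371951), had the largest fold change of the 10. It had 862 CPM in Em, 1194 in LPN, 1199 in EPN1 and 373 in EPN2 in complete medium. In differentiation medium it had 61.7 CPM in Em, 35.9 in LPN, 37.2 in EPN1 and 59.1 in EPN2. The lines thus differed by 3.21-fold in complete medium and by 1.72-fold in differentiation medium. The log2 fold change was -4.23 (SE 0.43, adjusted p = 0.00681 in edgeR), an 18.7-fold fall with a 95% interval of 9.46 to 37.0, the 48th most negative of all genes tested. It passed in all 8 fits without 1 library, with adjusted p-values of 0.00760 to 0.0398.

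NDRG1, a cytoplasmic protein made under stress and in differentiating cells (ENSSSCG00000005944, chromosome 4, 8014445 to 8069335), had 613 CPM in Em, 867 in LPN, 1040 in EPN1 and 578 in EPN2 in complete medium. In differentiation medium it had 141, 96.5, 172 and 152 CPM in the same order. The groups stood well apart, and the log2 fold change of -2.46 passed (edgeR, SE 0.26, adjusted p = 0.00728), as it did in all 8 fits without 1 library. ANKRD37, a small ankyrin repeat protein known as a HIF-1 target (ENSSSCG00000015798, chromosome 15, 46445789 to 46450046), had 27.1 CPM in Em, 16.7 in LPN, 41.1 in EPN1 and 7.19 in EPN2 in complete medium, and 3.42, 1.98, 2.22 and 1.84 CPM in the same order in differentiation medium. The libraries did not overlap, but the lines in complete medium differed by 5.72-fold. Its log2 fold change was -3.28 (SE 0.53, adjusted p = 0.0189 in edgeR), and the call was lost without EPN1 in complete medium (adjusted p = 0.0519), without EPN1 in differentiation medium (0.0734) and without LPN in differentiation medium (0.0635).

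ADM, the precursor of the vessel-widening peptide adrenomedullin (ENSSSCG00000013408, chromosome 2, 49229223 to 49231521), varied most between the lines. In complete medium it had 191 CPM in Em, 118 in LPN, 293 in EPN1 and 37.7 in EPN2, a 7.76-fold range. In differentiation medium it had 13.6 CPM in Em, 15.3 in LPN, 14.6 in EPN1 and 53.4 in EPN2. Em, LPN and EPN1 were far lower in differentiation medium, whereas EPN2 was higher there than in complete medium, so that the groups overlapped. The log2 fold change of -2.72 (SE 0.71, 95% interval -4.36 to -1.08) did not pass the threshold (adjusted p = 0.0589 in edgeR). It did so without EPN2 in complete medium (0.0328) and without EPN2 in differentiation medium (0.0371), and without both libraries of EPN2 it was -3.79 (0.0148).

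KDM3A, a histone demethylase that needs oxygen for its reaction (ENSSSCG00000008221, chromosome 3, 58300109 to 58355000), had 140 CPM in Em, 129 in LPN, 179 in EPN1 and 90.1 in EPN2 in complete medium. Differentiation medium gave 64.6 CPM in Em, 71.9 in LPN, 66.2 in EPN1 and 83.8 in EPN2. The media did not overlap, with EPN2 again on both sides of a narrow gap. On the log2 scale it fell by 0.91 (edgeR, SE 0.21, adjusted p = 0.0422), the smallest among the 7 genes called. With the line as a replicate block in edgeR it did not pass (adjusted p = 0.0502). The call stood in 2 of the 8 fits without 1 library, those without either EPN2 library, and reached an adjusted p of 0.120 without EPN1 in differentiation medium.

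The lines differed in a way that ran through the 10 genes. In complete medium EPN2 was the lowest library for 9 of them, all but EGLN3, while EPN2 was the lowest there for 28.7% of all tested genes. EPN1 was the highest library in complete medium for 8 of the 10, against 22.6% of all tested genes. In differentiation medium EPN2 was the highest for 6 of the 10, against 34.8%. EPN2 had the smallest fall or a rise for 10 of the 10 genes, against 31.6% of all tested genes. This was not particular to the 10 genes. EPN2 also had the smallest fall for the glycolysis genes HK1, GPI and ALDOA and for the HIF target DDIT4. It had the largest fall for the glycolysis gene PFKL and for the HIF targets P4HA2 and CA9. A low level of EPN2 in complete medium enters both the count of lowest libraries and that of smallest falls. The median log2 difference of the 10 genes between the media was -2.53 in Em, -2.98 in LPN, -2.94 in EPN1 and -1.71 in EPN2, and the medians over all tested genes lay between -0.01 and 0.01. All 10 genes were lower in differentiation medium in Em, LPN and EPN1, and 8 were in EPN2, where HIF1A was higher by 0.10 and ADM by 0.50 on the log2 scale. Each line has 1 library per medium, so that these differences between lines have no replicate check and were not tested. The early postnatal stage thus held both the line with the highest and the line with the lowest levels in complete medium for 7 of the 10 genes.

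**Figure D2:**
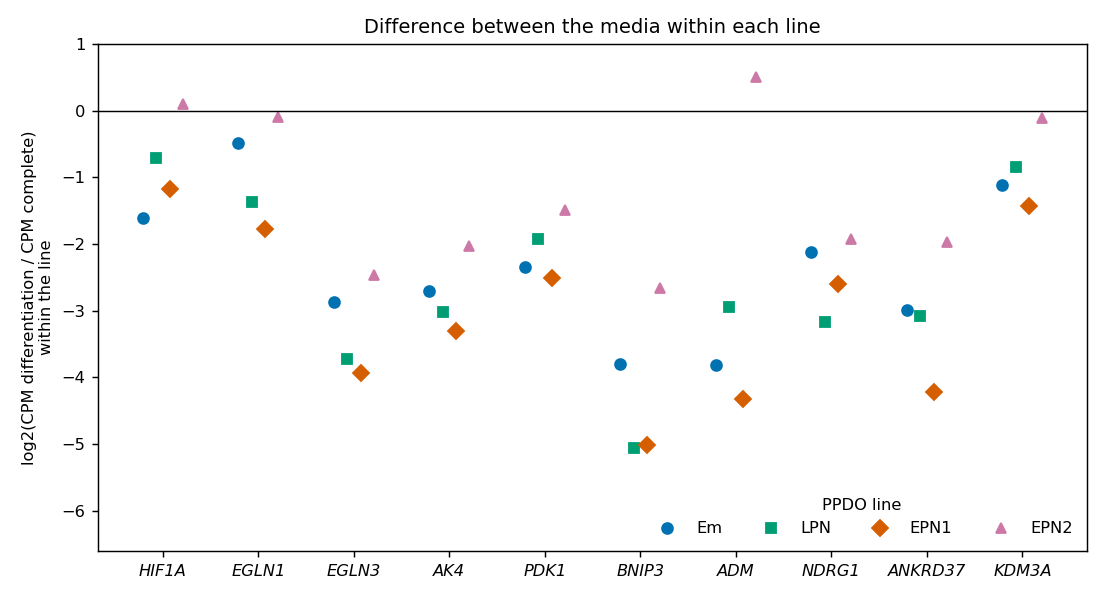
Log2 ratio of CPM in differentiation medium to CPM in complete medium within each PPDO line, for the 10 genes, with 1 symbol per line and the horizontal rule at no difference. EPN2 (triangles) is the topmost symbol for every gene and lies above the rule for HIF1A and ADM.

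Relatives of the same gene families were examined next, from a list of 16 that included no member of the 10. Of these, 12 were found by symbol and 11 were tested. None was called by edgeR, without the line as a block (background 6.97% in either direction) or with it (background 19.9%). Without adjustment 2 were under 0.05, AK6 and PDK3, against 27.3% of all tested genes. DESeq2 called 1, AK6 (background 17.7%). With the block DESeq2 also called 1, which was PDK3 (adjusted p = 0.0488, background 34.7%), and AK6 did not pass (0.0583). BNIP3L, the other mitophagy receptor of the BNIP3 family, stood at 176 ± 30.6 CPM in complete medium and at 145 ± 36.7 CPM in the other medium (SD, n = 4), a log2 fold change of -0.28 with a 95% interval of -0.76 to 0.19. NDRG3 had 44.6 ± 6.06 and 43.8 ± 4.51 CPM, with an interval of -0.34 to 0.29. AK3, the adenylate kinase of the matrix that uses GTP, had 75.3 ± 21.7 and 94.3 ± 25.7 CPM, with an interval of -0.27 to 0.92. The intervals of PDK2 (-0.73 to 0.87), NDRG2 (-1.11 to 1.56), NDRG4 (-0.71 to 1.62), AK1 (-1.91 to 1.58) and PDK4 (-1.61 to 2.32) were wider, so that a change of either sign is not bounded tightly for them.

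The difference between a gene and its relatives was again tested on the log2 ratio in each library. The ratio of BNIP3 to BNIP3L fell by 3.83 on the log2 scale, with single-line changes of -2.87 in EPN2, -3.87 in Em, -4.15 in EPN1 and -4.42 in LPN. The ratio of AK4 fell by 3.09 against AK3 and by 2.40 against AK6. PDK1 fell by 2.27 relative to PDK2 and by 1.62 relative to PDK3, and NDRG1 by 2.43 relative to NDRG3 and by 2.78 relative to NDRG4. KDM3A fell by 0.70 relative to JMJD1C, another demethylase of its family, with single-line changes from -1.31 in EPN1 to -0.07 in EPN2. Each of these ratios was lower in 4 of 4 lines and reached the smallest possible two-sided exact permutation p of 0.0286 (adjusted p = 0.0371 over 13 ratios). PDK1 relative to PDK4 and NDRG1 relative to NDRG2 were also lower in 4 of 4 lines but did not pass (exact permutation p = 0.0571, adjusted 0.0619 for each), and neither did AK4 relative to AK1 (p = 0.114). These ratios were chosen after the values had been seen, and the labelings ignore the pairing by line. EGLN2, the remaining sensor of the EGLN family, was not found by symbol and is not analysed here.

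**Figure D3:**
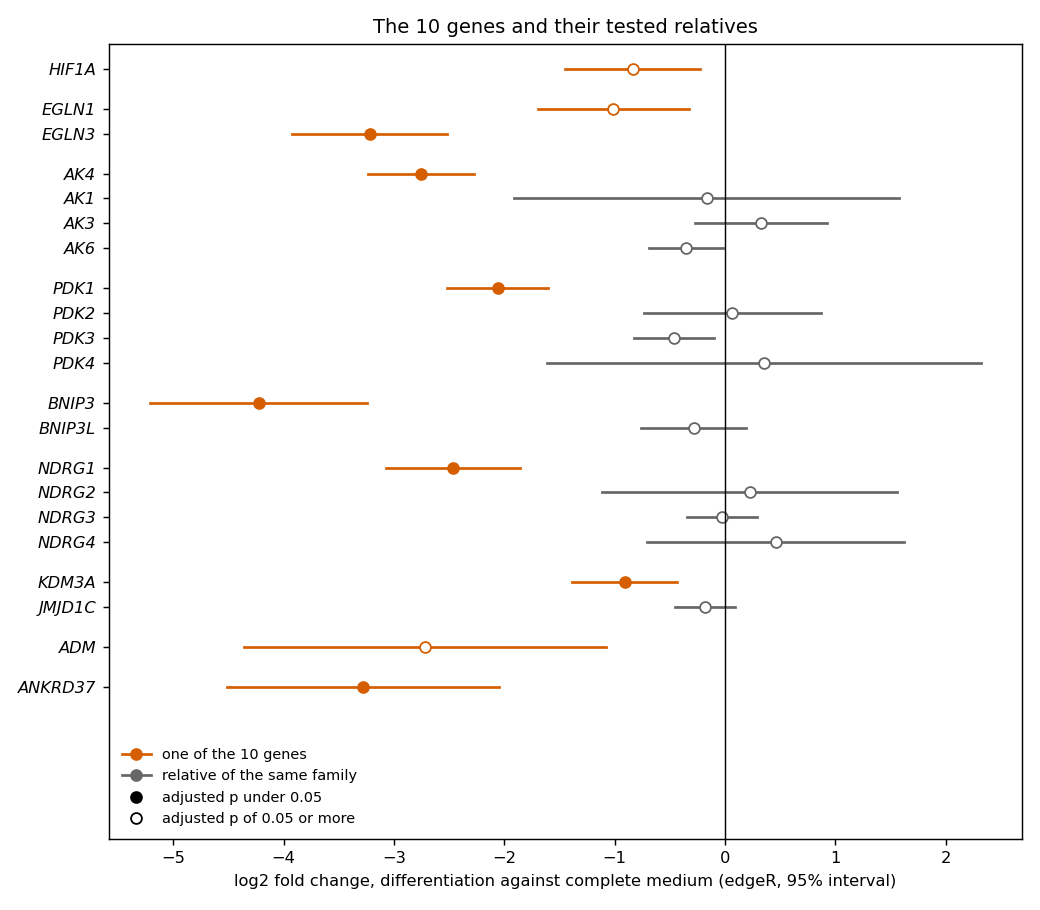
Log2 fold change of differentiation against complete medium for the 10 genes (orange) and their 11 tested relatives (grey), with unadjusted, approximate 95% intervals computed from the edgeR test. Filled circles passed an adjusted p under 0.05. The 7 filled circles are all orange, and no grey circle is filled.

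The partners through which these genes act were also read. Of 10 such genes 9 were tested, and 1 was called lower (background 4.1%), PDHX, a structural subunit of the pyruvate dehydrogenase complex that PDK1 controls (40.6 ± 9.52 against 21.5 ± 4.03 CPM, SD, n = 4, adjusted p = 0.0442 in edgeR for a log2 fold change of -0.92). Its libraries overlapped between the media, and its call stood in 2 of the 8 fits without 1 library, those without EPN2 in complete medium and without Em in differentiation medium. The catalytic subunit gene PDHA1 had a log2 fold change of -0.07. CALCRL encodes the receptor that binds adrenomedullin together with RAMP2 or RAMP3 and the related peptide CGRP together with RAMP1. The level of RAMP3 was 6.90 ± 3.45 CPM in complete and 5.65 ± 3.79 CPM after differentiation medium (SD, n = 4, log2 fold change -0.29, 95% interval -1.67 to 1.10), and RAMP2 lay below the expression filter. CALCRL and RAMP1 had 1.22 ± 1.55 and 2.43 ± 1.22 CPM in complete medium and 0.0541 ± 0.0549 and 0.504 ± 0.311 CPM in differentiation medium. The mean of CALCRL in differentiation medium lay below the 0.0626 to 0.0740 CPM that 3 counts stand for. Neither of CALCRL and RAMP1 passed the threshold (adjusted p = 0.0670 and 0.0658 in edgeR), and both did with the line as a block (0.0370 and 0.0131), where 3 of the 9 partners were called, all lower (background 10.4% lower).

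Of 18 regulators of HIF, 17 were tested, 2 were called higher and 0 lower, against a background of 2.87% of all tested genes called higher. VHL, the ligase subunit that recognises hydroxylated HIF alpha, was at 18.2 ± 3.18 CPM in complete medium and rose to 29.5 ± 2.69 CPM (SD, n = 4), by 0.70 on the log2 scale (edgeR, SE 0.16, adjusted p = 0.0423). SIAH1, a ubiquitin ligase known to act on EGLN proteins, was at 20.1 ± 2.85 CPM and rose to 37.3 ± 10.9 CPM, by 0.89 on the log2 scale (edgeR, SE 0.22, adjusted p = 0.0497). Both were higher in 4 of 4 lines, and each call stood in 1 of the 8 fits without 1 library, for VHL that without EPN2 in complete medium and for SIAH1 that without Em in differentiation medium. With the line as a block 7 regulators were called (background 19.9%), with HIF1AN, CITED2 and ELOB among the higher ones, and HIF3A and RACK1 lower. The HIF-1 partner ARNT had 95.1 ± 21.9 and 87.7 ± 15.2 CPM (log2 fold change -0.12, 95% interval -0.57 to 0.34). EPAS1, the alpha subunit of HIF-2, had 187 ± 69.8 and 471 ± 465 CPM, lower in 2 of 4 lines (adjusted p = 0.314).

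Of 40 further HIF targets outside glycolysis, 38 were tested, 15 were lower and 0 higher, with a median log2 fold change of -0.92, against the background of 4.1% called lower. The 10 with the largest changes were the secreted factor gene STC2 (log2 fold change -5.80), the mitochondrial gene NDUFA4L2 (-4.76), the collagen lysyl hydroxylase gene PLOD1 (-4.12, SE 0.39, adjusted p = 0.00568 in edgeR), the lysyl oxidase family gene LOXL2 (-3.67), PPFIA4 (-3.59), the collagen prolyl hydroxylase subunit gene P4HA1 (-3.32), the vessel growth factor gene VEGFA (-3.11), the secreted lipase inhibitor gene ANGPTL4 (-2.51), ERO1A, which helps oxidise proteins in the endoplasmic reticulum (-2.45), and the stress gene DDIT4 (-2.24). The other 5 were P4HA2, WSB1, CA9, GBE1 and KDM4C. Of the 38 genes, 22 were lower in all 4 lines, against 24.2% of all tested genes, and for 18 the libraries in differentiation medium lay below all those in complete medium, against 9.96%. With the line as a block 17 were lower (background 10.4%), with PLOD2 (adjusted p = 0.213 without the block and 0.0126 with it) and BHLHE41 (0.186 and 0.0156) added. Other known targets without a call in either fit included the transferrin receptor gene TFRC (log2 fold change 0.01, 95% interval -0.67 to 0.69), the histone demethylase gene KDM4B (-0.15) and the fucosyltransferase gene FUT11 (-0.32). The number called depended on single libraries, with 2 of 38 without EPN1 in differentiation medium, 6 without EPN1 in complete medium, 7 without either LPN library and 9 without Em in differentiation medium. Calls over all tested genes fell as well, from 593 lower with all libraries. Without EPN1, 47 of 14758 (differentiation medium) and 111 of 14783 (complete medium) were lower. Without LPN these were 104 of 14752 and 120 of 14757, and without Em in differentiation medium 308 of 14800.

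Genes of glycolysis, which form the other main group of HIF targets, were lower alongside. Of 20 such genes 19 were tested and 15 were lower, with a median of -1.42 (background 4.1% lower). The 10 with the largest changes were the lactate transporter gene SLC16A3 (log2 fold change -6.59), ENO2 (-4.55), PFKFB3 (-3.45), GAPDH (-3.25), LDHA (-2.36), ENO1 (-2.26), PGK1 (-2.05), TPI1 (-1.52), PFKP (-1.47) and HK1 (-1.42). With the line as a block 16 were lower (background 10.4%), with PFKL added (adjusted p = 0.0535 without the block and 0.0246 with it in edgeR). The number lower fell to 6 of 19 without EPN1 in differentiation medium, 8 without LPN in differentiation medium, 9 without LPN in complete medium and 10 without EPN1 in complete medium. In the same order, 47 of 14758, 104 of 14752, 120 of 14757 and 111 of 14783 tested genes were lower. Whether the 10 genes and the glycolysis genes differ in their response was not tested. Of 17 proliferation genes 14 were tested and none was called in edgeR (background 6.97%), with 5 under 0.05 without adjustment (background 27.3%). DESeq2 called 1 (background 17.7%). With the line as a block 6 were lower in edgeR (background 10.4%), namely TOP2A, CDK1, CCNB1, CCNB2, BUB1 and PLK1. DESeq2 with the block called 10 (background 34.7% in either direction). The summed level of the proliferation genes went from 993 to 790 CPM in Em, from 465 to 270 in LPN, from 657 to 435 in EPN1 and from 544 to 443 in EPN2. The sum was thus lower in differentiation medium in each of the 4 lines, and the part of proliferation in the fall of the 10 genes was not tested. None of the 11 ductal marker genes tested was called in edgeR (2 without adjustment and 1 in DESeq2, against the same backgrounds), whereas 2 were called with the line as a block (background 19.9%), CDH1 and ONECUT1, both higher, and 3 in DESeq2 with the block (background 34.7%). Of 7 stromal markers 2 were tested, and 0 were called in edgeR without the block (background 6.97%). With the block 1 was called, PDGFRB, which was lower (adjusted p = 0.121 without the block and 0.0160 with it in edgeR, background 10.4% lower). The summed level of the stromal markers went from 6.28 to 9.26 CPM in Em and from 3.78 to 6.56 in EPN1. It went from 2.68 to 0.689 CPM in LPN and from 0.859 to 0.817 in EPN2.

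**Figure D4:**
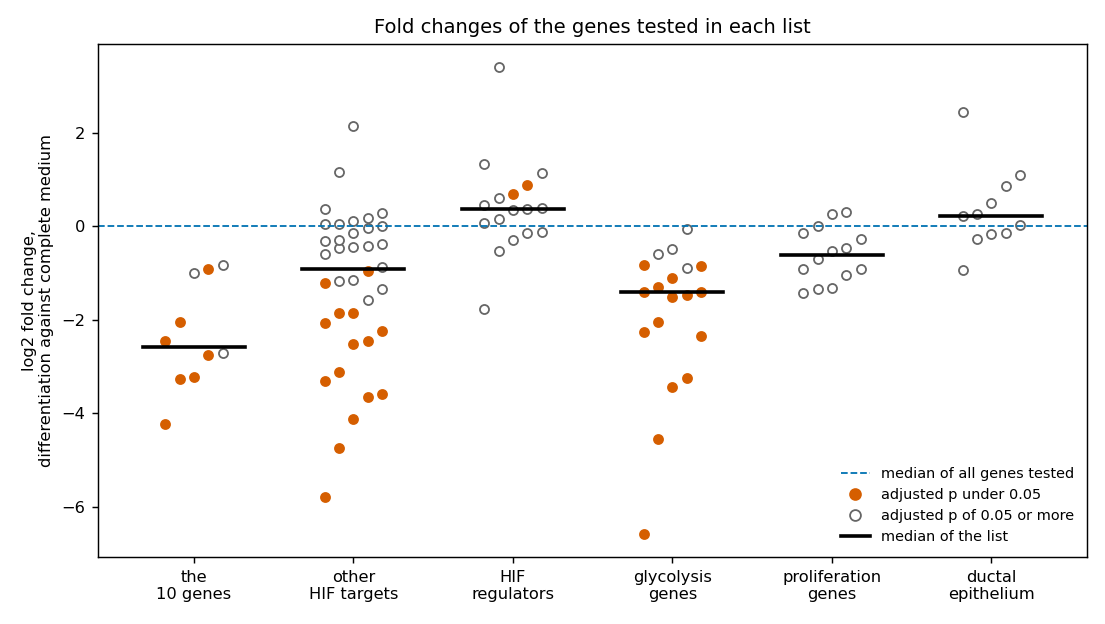
Log2 fold changes of differentiation against complete medium for the tested genes of each list, with filled orange circles for an adjusted p under 0.05 in edgeR, black bars for the list's median and a dashed line for the median of all 14475 genes tested. The medians are -2.59 for the 10 genes, -0.92 for other HIF targets, 0.37 for HIF regulators and -1.42 for glycolysis genes.

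The genes whose pattern over the 8 libraries was most like each of the 10 were found by the root mean square difference of log2 CPM, after each gene's own mean was removed. The libraries share lines and media, so these are descriptions. A gene of the glycolysis or other HIF target lists was the nearest for 3 of the 10. PDK1 was nearest to PGK1 (0.207), then to NCKIPSD and RAB3A. NDRG1 was nearest to ENO1 (0.241), then to TCF7 and SLC5A3. BNIP3 was nearest to PLOD1 (0.323), then to ENO2 and RSPO1. ANKRD37 was nearest to PIP4P2 (0.270), then to SMIM1 and to PFKFB3 (0.346). EGLN3 was nearest to CBARP (0.294), then to RNF112 and TCF7, and AK4 to BCAN (0.232), then to TCF7 and CBARP. EGLN3 and AK4 each stood among the 10 genes nearest to the other, at a difference of 0.374, as did AK4 and NDRG1, at 0.367, and KDM3A was among the 10 nearest to HIF1A, at 0.240. HIF1A was nearest to MYO9A (0.155), then to SERTAD2 and ABL2. EGLN1 was nearest to GGCX (0.152), then to PGM1 and ADAT3. ADM was nearest to CCNO (0.401), then to PDZD2 and DMPK. KDM3A was nearest to MRPS18B (0.0588), then to KPNA5 and MYO9A. None of the 10 had another of the 10 among its nearest 3.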

How the data were processed

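RNA of 8 PPDO cultures was extracted after a week in complete or differentiation medium, and poly-A libraries were sequenced. The authors quantified transcripts with salmon within nf-core, on a Sus scrofa genome with their own annotation, and deposited estimated counts per gene row, 1 column per line and medium. The study's methods say that the gene length scaled output of salmon was used for its differential expression. The deposited table is labelled as raw counts, and whether it is that output, and which salmon version made it, is not given in the sources used here. Of its values above 0, 88.4% were whole numbers within 0.001, which scaling by gene length would seldom leave. The submitters' processing notes name the build Sscrofa11.1. Column names give the medium and the line, while the sample titles give the medium and a number, so that columns were grouped by medium and matched to no numbered sample.

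The table had 56060 rows. Rows of the same gene, including 25770 with an added 3' extension that held 2.58% of counts, were summed as in the study's methods, which gave 30282 genes, and estimated counts were rounded. Of these, 17569 had a symbol in the table, 529 were named by identifier from a gene name table and 12184 had none. The 8 rows of reporter transgenes (0.00142% of counts) were left out. The 10 genes matched RefSeq entries of Sscrofa11.1 by symbol, which gave their coordinates. Reads shared between related genes could not be examined.

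The media were compared with the edgeR 4.0.16 quasi-likelihood test in R 4.3.3 (TMM factors 0.935 to 1.06, filterByExpr, no term for the line, Benjamini-Hochberg adjustment, 14475 genes). DESeq2 1.42.0, the line as a replicate block, other scalings, no filter, no extension rows and the omission of each library or line were alternatives. Deviations from the medium's mean correlated at 0.400 to 0.658 between the 2 libraries of a line and at -0.479 to 0.242 between different lines, so the line was taken to pair them, as its name does. In data simulated on this comparison, a small random sample of the genes was changed by 1, 2 or 3 on the log2 scale. In the same order, 7.46%, 50.8% and 83.1% of those kept by the filter were called, in a fit of 14244 genes. P-values measure the spread between these cultures.

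The 10 genes and all lists were chosen with earlier results of these data known. The 10 genes are all named, and of the other lists those past the threshold, largest change first, up to 10 a list, and the 3 genes most alike in pattern (pseudocount 0.05 CPM). Other genes named from the lists, and the 13 ratios, were chosen after their values were seen.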

Additional observations from a re-analysis of the deposited data

Results flagged for a closer look

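In complete medium HIF1A had 271 CPM in EPN2, far from the 468, 480 and 468 CPM of Em, LPN and EPN1 by Dixon's criterion for 4 values (gap over range 0.943, past the 95% critical value). In differentiation medium ADM had 53.4 CPM in EPN2, far from the 13.6, 15.3 and 14.6 CPM of Em, LPN and EPN1 (gap over range 0.956). Among 30 groups of 4 values examined these were the 2 that stood out, and chance gives about 1 in 20.

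The reporter transgene rows, which entered no comparison, held counts above the limit of 3 that a count of 0 allows in 6 libraries. In complete medium they summed to 18 counts in LPN, 4664 in EPN1 and 20 in EPN2. In differentiation medium they summed to 57 counts in LPN, 234 in EPN1 and 66 in EPN2.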

How the results depend on the processing

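The log2 fold changes of the 10 genes were negative under all 23 alternatives, and their median of -2.59 stayed between -2.82 and -2.24. The number of the 10 genes called, 7 in edgeR, was 0 to 10 when a library or a line was left out, and 6 without the expression filter. Over all genes, the 1009 calls became 2884 in edgeR with the line as a replicate block, 2998 in DESeq2, 5608 in DESeq2 with the block and 506 without the expression filter, and ranged from 0 to 2989 when a library or line was left out. The 2 calls among HIF regulators became 7 with the block, 8 in DESeq2, 11 in DESeq2 with the block and 0 without the filter, and ranged from 0 to 5 when a library or line was left out. The 15 calls among other HIF targets became 17 with the block, 16 in DESeq2, 21 in DESeq2 with the block and 15 without the filter, and ranged from 0 to 20 when a library or line was left out. With the line as a replicate block, KDM3A was the only one of the 10 genes whose call changed (adjusted p = 0.0502 in edgeR). Without both libraries of LPN or of EPN1, 22 and 8 genes were called with the other lines as a block, none of them among the 10. Fits that left out a line and kept the others as a block were chosen after seeing the data. The omissions leave fewer libraries, the same number for each line, and the cause of these changes was not tested. With 4 lines, small changes are poorly resolved, and sequencing depth was high for each of the 10 genes.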
